A study of Mus musculus with 6 samples.

Results

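T cells that meet their antigen need a second signal, and the genes that carry or restrain it were followed here through the healing cortical lesion. The 10 genes were chosen by name, with earlier results of these data known, of 32285 features in the tables. They were Cd80, Cd86, Cd274, Pdcd1lg2, Pdcd1, Cd28, Cd40, Icosl, Il15 and Il15ra. Their unique molecular identifiers (UMIs, 1 per captured RNA molecule) were summed per library within macrophages, microglia, dendritic cells, fibroblasts and T cells, and are given as CPM, the counts of a gene scaled to 1000000 non-mitochondrial UMIs of that group and library. All 10 genes were detected, with 570 UMIs for Pdcd1 at the low end and 40223 for Il15 at the high end.

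RNA was counted in single nuclei from photothrombotic (PT) lesions of the mouse brain, in which light and a dye close cortical vessels. WT mice whose treatment is given as NA (Ctrl), WT mice given ADWA11, an antibody that blocks integrin αvβ8, and Col1a2(creER); Tgfbr2(flox) mice (Tgfbr2-cKO) were sampled at 7 and 21 days post injury (dpi). In the Tgfbr2-cKO mice tamoxifen activates a Cre driven by Col1a2, so the type II TGFβ receptor is targeted in fibroblasts and not in every cell. Per the study's methods, mice were adults of both sexes, and each library pooled 1 female and 1 male mouse. Each of the 6 groups was therefore 1 library with no replicate. Each ratio sets 1 library against 1 other. No test over libraries was run, and the intervals cover counting error only. The mice of a library were told apart by sex-linked RNA, and their values are given without a test. Of the nuclei that passed the filters, 1348 to 2919 per library could not be assigned and are left out of the mouse values. A ratio is called past the threshold where it reached 1.5-fold in CPM, its exact 95% interval on the log2 scale left out 0 and both libraries together held at least 20 UMIs of the gene.

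Libraries held 7205 to 14246 barcodes and 64798965 to 140310354 UMIs, with a median of 4601.5 to 8222.5 UMIs per barcode, and any pair of libraries shared 21 to 61 barcodes. Of 61917 nuclei that passed the filters, 61523 were used. The Tgfbr2-cKO library at 7 dpi stood apart, since 5999 of its 10593 nuclei were neurons, against 28 to 874 neurons in each of the other 5. Groups were named from marker genes, and each name below stands for nuclei of that type by their markers (macrophage-like and so on). In the order Ctrl, ADWA11 and Tgfbr2-cKO, macrophages numbered 1993, 5096 and 322 at 7 dpi and 1725, 5522 and 720 at 21 dpi. Dendritic cells numbered 22 to 245 per library, T cells 27 to 1062 and fibroblasts 461 to 6594. The T cell group includes 331 nuclei named NK cells by their markers, 232 of them in ADWA11 at 21 dpi. The 12 T cell markers summed to 7457 to 8774 CPM in T cells and to 9.66 to 31.1 CPM in macrophages. The 20 macrophage markers summed to 590 to 1961 CPM in T cells and to 6461 to 9132 CPM in macrophages. The part of macrophage RNA in the T cell values was not tested. The microglia of the ADWA11 libraries numbered 79 and 62 nuclei, against 1188 to 1771 elsewhere. Their 12 microglial markers summed to 1111 CPM at 7 dpi and 384 CPM at 21 dpi, against 2157 to 3233 CPM in the other 4 libraries, and the 20 macrophage markers to 7975 and 10695 CPM, against 4264 to 4976 CPM. The name is therefore doubtful in both ADWA11 libraries. Their microglia are left out of the order of groups, and the counts of called values for ADWA11 are given with and without microglia.

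The Tgfbr2-cKO libraries also differed in the RNA of other cell types. In macrophages, microglia, dendritic cells and T cells the 10 neuron markers summed to 1118 to 2106 CPM in Tgfbr2-cKO at 7 dpi and to 398 to 664 CPM at 21 dpi, against 13.8 to 153 CPM in the other 4 libraries. The 10 fibroblast markers in the same 4 groups ran the other way, with 25.5 to 104 CPM in Tgfbr2-cKO and 543 to 1567 CPM in Ctrl. In fibroblasts the 10 fibroblast markers summed to 6415 and 3699 CPM in Tgfbr2-cKO against 10974 and 9166 CPM in Ctrl. The part of these in the Tgfbr2-cKO results was not tested. Tgfbr2 itself, in the same order, stood at 331, 253 and 240 CPM in fibroblasts at 7 dpi and at 234, 204 and 192 CPM at 21 dpi. Counts from gene ends need not pass through the deleted exons, so these values do not check the deletion.

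By way of background, CD80 and CD86 on antigen-presenting cells bind CD28, which promotes T cell activation, and CTLA-4, which restrains it. PD-L1 (Cd274) and PD-L2 (Pdcd1lg2) bind the inhibitory receptor PD-1 (Pdcd1). CD40 is the receptor through which CD40L on helper T cells licenses antigen-presenting cells, ICOSL binds ICOS, and IL-15 is held on IL-15Rα and shown to cells that bear the IL-2 receptor β chain and the common γ chain, such as memory CD8 T cells and NK cells. Levels of different genes are not compared, because counts from gene ends are not per length.

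Most of the genes had 1 group that held the largest share of their UMIs. Cd80 was mainly fibroblast RNA, with 69.3% of its UMIs in that group, which was 27.6% of nuclei. Over the 6 libraries together, macrophages held the most UMIs of Cd86 (45.5%), Cd274 (56.5%), Cd28 (57.9%), Cd40 (54%), Icosl (30.5%) and Il15 (49.8%). They also held 29.6% of Pdcd1lg2 and 29.1% of Il15ra, more than any other group. Macrophages were 46.6 and 45.3% of nuclei in the ADWA11 libraries but 3.04 to 24.1% in the others, so this order need not hold in each library. In Tgfbr2-cKO at 7 dpi, with 322 macrophages and 1771 microglia, microglia held more Cd86 UMIs than macrophages. T cells held 64.9% of Pdcd1. The plot of levels shows how each gene was spread over groups and libraries.

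**Figure D1:**
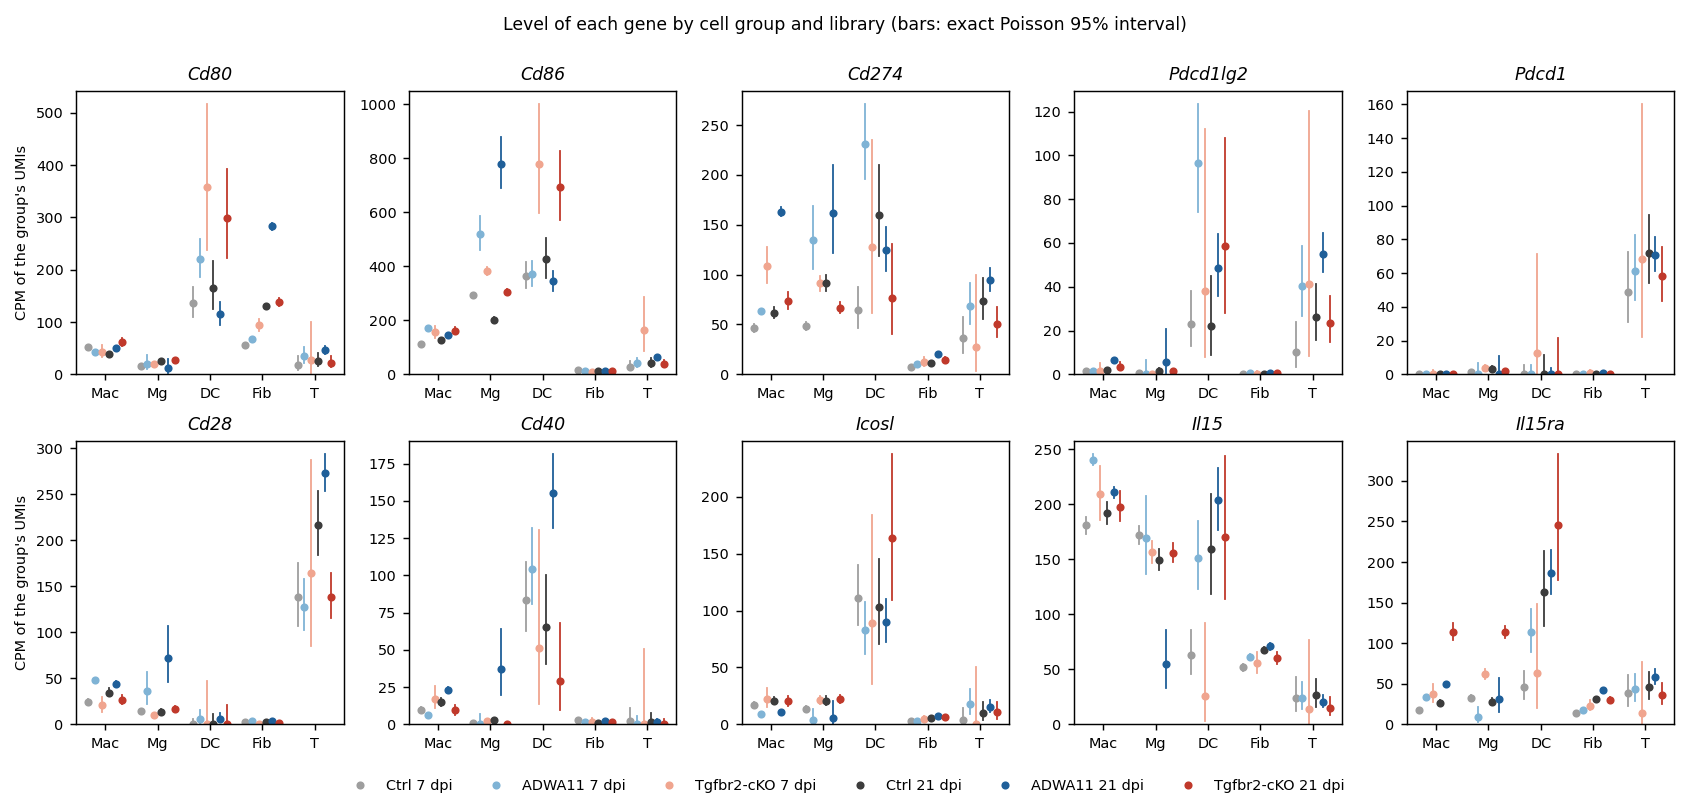
Levels of the 10 genes in CPM of the group's UMIs (vertical axis) in macrophages (Mac), microglia (Mg), dendritic cells (DC), fibroblasts (Fib) and T cells (T), with 1 point per library and its exact Poisson 95% interval. The ADWA11 21 dpi point of Cd80 in fibroblasts stands at 283 CPM, above the other 5 libraries, and both Il15ra points of Tgfbr2-cKO at 21 dpi in macrophages and microglia stand at 114 and 113 CPM.

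**Figure D2:**
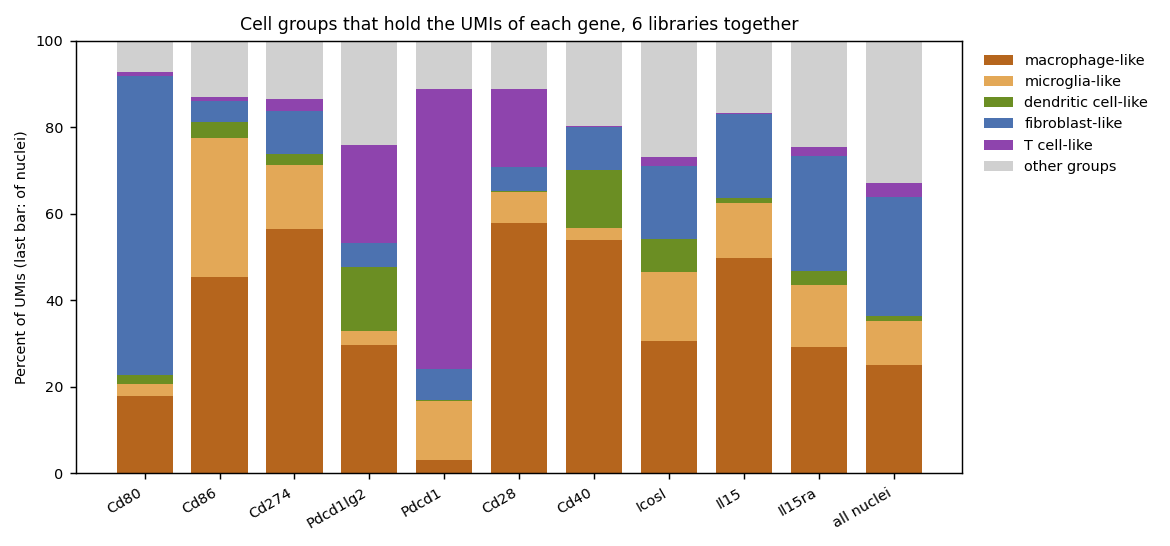
Percent of each gene's UMIs (vertical axis) that lay in each cell group, with the 6 libraries together, and in the last bar the percent of nuclei. Fibroblasts held 69.3% of Cd80, macrophages 49.8% of Il15 and T cells 64.9% of Pdcd1.

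Cd80 (chr16:38455561-38496335, plus strand, GRCm38) encodes a ligand of CD28 and CTLA-4. In fibroblasts it stood at 56.3 CPM in Ctrl, 67.6 in ADWA11 and 93.9 in Tgfbr2-cKO at the early day, and in the same order, kept throughout, at 130, 283 and 138 CPM at 21 dpi. The ADWA11 library at 21 dpi was the highest and the 3 early libraries were the lowest. Against Ctrl at 21 dpi, ADWA11 was 2.18-fold higher (log2 ratio 1.12, 95% interval 1.07 to 1.18), and Ctrl itself was 2.31-fold higher at 21 than at 7 dpi. Tgfbr2-cKO differed from Ctrl by a log2 ratio of 0.74 at 7 dpi (0.53 to 0.94) and of 0.08 at 21 dpi, the second short of the threshold. The 7 dpi ratio was 0.50 under another scaling (TMM factors) and 0.45 without the 5 nuclei of each library with the most Cd80 UMIs.

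Nuclei that carry Xist or Y-linked RNA were assigned to the female or the male mouse, and the mice of ADWA11 at 21 dpi stood close together in fibroblast Cd80, at 292 and 289 CPM. Those of Ctrl at 21 dpi stood at 125 and 142 CPM, so the pairs of mice did not overlap. The mice of Tgfbr2-cKO at 21 dpi were apart from each other, at 98.8 CPM in the female and 192 CPM in the male.

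Among the fibroblast sub-clusters, Cd80 was highest in sub-cluster 0, led by Slc47a1 and Pde11a, at 266 CPM, and in sub-cluster 6, with 311 of its 328 nuclei from Tgfbr2-cKO at 21 dpi, at 231 CPM. It was lowest in sub-cluster 4, led by the laminin genes Lama1 and Lamc3, at 14.7 CPM. Within sub-cluster 0, Cd80 stood at 87.5, 57.1 and 77.2 CPM at 7 dpi and at 197, 350 and 165 CPM at 21 dpi, so the ADWA11 library was again the highest within 1 sub-cluster. Sub-cluster 0 held 2068 nuclei of Ctrl, 2307 of ADWA11 and 94 of Tgfbr2-cKO at 21 dpi, against 87, 160 and 22 at 7 dpi. In sub-cluster 2 Cd80 ran the other way with day, at 68.4 CPM in Ctrl and 99.4 CPM in ADWA11 at 7 dpi and at 46.2 and 24.7 CPM at 21 dpi. The share of all Cd80 UMIs found in fibroblasts was 51.4, 46.8 and 35.6% at 7 dpi and 85.5, 76.7 and 63.7% at 21 dpi.

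Outside fibroblasts, Cd80 was highest in dendritic cells, at 136, 220 and 357 CPM at 7 dpi and at 166, 115 and 299 CPM at 21 dpi. Tgfbr2-cKO was the highest at each day there, on 22 and 32 nuclei, with log2 ratios to Ctrl of 1.40 and 0.85. In macrophages Cd80 lay between 38.8 and 61.3 CPM, and only the ratio of Tgfbr2-cKO to Ctrl at 21 dpi was past the threshold in that group, at 0.66, with the mice at 75.9 and 42.1 CPM against 35.7 and 41.0 CPM. Within the Cd163 sub-cluster of macrophages this Cd80 ratio was -0.084. In microglia of the Ctrl and Tgfbr2-cKO libraries it lay between 15.5 and 26.6 CPM.

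Cd86 (chr16:36603869-36666081, minus strand) encodes the second ligand of the CD28 and CTLA-4 pair, and differed from Cd80 in that microglia were its second group and fibroblasts the lowest. In the 5 fibroblast sub-clusters numbered 0, 2, 3, 4 and 5 it stood at 1.07 to 2.44 CPM. Sub-clusters 6 and 7 held 2.06 and 7.04 CPM, while sub-cluster 1 held 68.0 CPM. Sub-cluster 1 had 4087 nuclei, of which 36.7% were called doublets. Microglia and dendritic cells were the high groups. In microglia Cd86 stood at 292 and 202 CPM in Ctrl at the early and late day and at 381 and 304 CPM in the Tgfbr2-cKO libraries, so Tgfbr2-cKO was above Ctrl at both days. The microglia of the libraries lay in different sub-clusters at 7 dpi, where 1707 of 1771 nuclei of Tgfbr2-cKO but 65 of 1755 of Ctrl were in sub-cluster 4. Within sub-cluster 2 Cd86 stood at 295 CPM in Ctrl and 285 CPM in Tgfbr2-cKO at 7 dpi, without the difference of the group, and at 203 and 292 CPM at 21 dpi. The log2 ratio was 0.59 at 21 dpi (0.49 to 0.69) and short of the threshold at 7 dpi. Its mice stood at 269 and 345 CPM, both above the 213 and 175 CPM of Ctrl at 21 dpi. The 12 microglial markers summed to 2157 CPM in Ctrl and 2219 CPM in Tgfbr2-cKO at 21 dpi.

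In dendritic cells Cd86 stood at 366, 370 and 778 CPM at 7 dpi and at 425, 345 and 692 CPM at 21 dpi, with Tgfbr2-cKO the highest at each day. Its ratios to Ctrl were 1.09 and 0.70 on the log2 scale, again on 22 and 32 nuclei, and the first was -0.19 in female-called nuclei alone. In macrophages it lay between 111 and 170 CPM, the least in Ctrl at 7 dpi and the most in ADWA11 at 7 dpi, a log2 ratio of 0.62 (0.53 to 0.71). Those ADWA11 macrophages were mostly sub-cluster 3, led by Stab1 and Cd36, with 2826 of 5096 nuclei. Over all libraries Cd86 stood at 193 CPM there, against 117 CPM in sub-cluster 0, which held 1731 of the 1993 Ctrl macrophages. That ADWA11 library supplied 89.7% of the nuclei of sub-cluster 3, so the 193 CPM is largely its own value. The part of this makeup was not tested.

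Cd274 (chr19:29367455-29388095, plus strand) encodes PD-L1. In macrophages it stood at 46.3, 63.3 and 109 CPM at 7 dpi and at 61.7, 163 and 73.4 CPM at 21 dpi. ADWA11 at 21 dpi was the highest library, with a log2 ratio to Ctrl of 1.40 (1.26 to 1.55), and Tgfbr2-cKO at 7 dpi was the next, with 1.23 (0.96 to 1.4996). Both mice were above both Ctrl mice in each case, with 112 and 179 CPM against 65.6 and 59.3 CPM at 21 dpi, and 153 and 101 CPM against 48.8 and 49.1 CPM at 7 dpi. In the female-called nuclei alone the 21 dpi ratio was 0.77 and in the male-called 1.60.

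The macrophage sub-clusters differed in Cd274 as well. Sub-cluster 6, led by interferon-response genes and Cd5l, held 235 CPM and sub-cluster 1, led by Fabp4 and Slamf8, 151 CPM, against 44.9 to 59.8 CPM in the others. These 2 sub-clusters supplied 1101 and 3778 of the 5522 ADWA11 macrophages at 21 dpi, and the part of this makeup in the group's value was not tested. Within sub-cluster 5, marked by Cd163 and Mrc1 and present in all libraries, Cd274 was 13.9, 51.5 and 63.8 CPM at 21 dpi. Ctrl was the lowest within this sub-cluster at 7 dpi too, with 23.1, 44.1 and 63.6 CPM in the same order. At that day it held 267 of 322 macrophages of Tgfbr2-cKO but 156 of 1993 of Ctrl, while sub-cluster 0 held 34 and 1731. In sub-cluster 1 the 21 dpi values were 83.2, 162 and 186 CPM.

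In fibroblasts Cd274 was low, at 7.40, 10.1 and 11.99 CPM at 7 dpi and 11.2, 20.6 and 14.4 CPM at 21 dpi, and ADWA11 at 21 dpi was the highest (log2 ratio to Ctrl 0.88). In dendritic cells it stood at 64.8, 231 and 128 CPM at 7 dpi and at 159, 124 and 76.2 CPM at 21 dpi. ADWA11 was the highest at 7 dpi, with both mice at 228 and 271 CPM against 55.2 and 42.1 CPM in Ctrl. Only 45 and 60 of the 136 Ctrl nuclei were assigned to a mouse, and the 64.8 CPM of all 136 lay above both Ctrl mice. Tgfbr2-cKO was below Ctrl at 21 dpi (log2 ratio -1.07, with 13 UMIs). The 131 mature dendritic cells held 430 CPM over all libraries and the other dendritic subsets 35.8 to 64.8 CPM. Mature nuclei were 11 of 136 in Ctrl and 29 of 117 in ADWA11 at 7 dpi. At 21 dpi they were 21 of 84 in Ctrl and 11 of 32 in Tgfbr2-cKO, a larger share where Cd274 was lower, and the part of the makeup was not tested. In T cells Cd274 lay between 27.5 and 94.8 CPM.

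Pdcd1lg2 (chr19:29410919-29471161, plus strand), the gene of PD-L2, was rare, with 996 UMIs in all. The antisense gene A930007I19Rik, which overlaps it and was counted apart, had 58 UMIs beside 147 of Pdcd1lg2 in dendritic cells and 149 beside 227 in T cells, but 5808 beside 295 in macrophages. A small share of misassigned reads would weigh on Pdcd1lg2 in macrophages, and this was not tested. Dendritic cells held 23.1, 96.4 and 38.3 CPM at 7 dpi and 21.9, 48.4 and 58.6 CPM at 21 dpi, and T cells 10.2, 40.2 and 41.2 CPM and then 26.4, 55.0 and 23.7 CPM. ADWA11 was above Ctrl in both groups at 7 dpi, while the Tgfbr2-cKO values there rest on 3 UMIs each and their intervals cover the Ctrl values. Over all libraries the mature dendritic cells stood at 178 CPM, regulatory T cells at 118 CPM and NK cells at 56.6 CPM, against 24.6 CPM in CD8 T cells and 5.99 CPM in type 1 dendritic cells. ADWA11 at 21 dpi supplied 205 of the 242 regulatory T nuclei and 232 of the 331 NK nuclei, so these levels rest mainly on that library. In macrophages ADWA11 at 21 dpi had 6.40 CPM (201 UMIs) and Ctrl 1.80 CPM (13 UMIs), a log2 ratio of 1.83 (1.03 to 2.77). The ADWA11 mice stood at 6.25 and 6.29 CPM. Over all libraries macrophage sub-clusters 1 and 6 held 6.39 and 5.11 CPM of Pdcd1lg2, against 0.57 to 2.14 CPM in the others. They supplied 3778 and 1101 of the 5522 ADWA11 macrophages at 21 dpi and 325 and 23 of the 1725 of Ctrl. That ADWA11 library made up 83.8 and 86.7% of their nuclei, and the part of this makeup was not tested.

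Il15 (chr8:82331632-82403222, minus strand), whose protein sustains memory CD8 T cells and NK cells, was the most even of the genes in macrophages. It stood there at 181, 240 and 209 CPM at 7 dpi and at 192, 211 and 198 CPM at 21 dpi, and none of the 7 comparisons reached 1.5-fold. Its sub-clusters ran from 199 to 257 CPM. Microglia of the Ctrl and Tgfbr2-cKO libraries held 150 to 172 CPM and fibroblasts of all 6 libraries 51.8 to 70.9 CPM, without a call between libraries in either set. Dendritic cells differed by library, at 63.3, 152 and 25.5 CPM at 7 dpi, the last from 2 UMIs, and at 159, 203 and 170 CPM at 21 dpi. Mature dendritic cells held 403 CPM of Il15 over all libraries and the Mgl2 Cd209a subset 43.8 CPM. The mature subset was 11 of 136, 29 of 117 and 3 of 22 dendritic nuclei at 7 dpi and 21 of 84, 56 of 245 and 11 of 32 at 21 dpi. The shares and the Il15 values did not follow the same order, and the part of the makeup was not tested. T cells were the lowest group, between 13.7 and 26.4 CPM.

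Il15ra (chr2:11705290-11734317, plus strand), the gene of the chain that shows IL-15 to other cells, had the largest called ratios above 0 in Tgfbr2-cKO against Ctrl at 21 dpi. In macrophages it stood at 17.8, 33.6 and 37.8 CPM at 7 dpi and at 26.5, 50.1 and 114 CPM at 21 dpi. Tgfbr2-cKO at 21 dpi was 4.29-fold higher than Ctrl, a log2 ratio of 2.10 (1.85 to 2.35), and ADWA11 was 0.92 above Ctrl on the log2 scale at each day. In microglia Il15ra was 32.4 and 28.0 CPM in Ctrl at the early and late day and 61.8 and 113 CPM in the Tgfbr2-cKO libraries, with log2 ratios of 0.93 and 2.02. Within microglial sub-cluster 2 the ratio was 0.060 at 7 dpi, on 64 nuclei of Tgfbr2-cKO, and 2.02 at 21 dpi.

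The mice of Tgfbr2-cKO at 21 dpi were unlike in Il15ra. In macrophages the female stood at 162 CPM and the male at 51.9 CPM, against 27.8 and 21.6 CPM in Ctrl. In microglia the female stood at 165 CPM and the male at 63.7 CPM, against 26.0 and 28.8 CPM. Both were above both Ctrl mice, and the female supplied most of the size of the ratio, which was 1.26 in male-called and 2.54 in female-called macrophages. The 539 macrophages of the Cd163 sub-cluster in this library held 141 CPM and those of Ctrl 31.4 CPM, so the difference was present within 1 sub-cluster. In the same library sub-cluster 0 held 50.5 CPM and sub-cluster 1 held 50.6 CPM, against 25.2 and 24.0 CPM in Ctrl.

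In fibroblasts Il15ra stood at 14.0, 17.3 and 23.2 CPM at 7 dpi and 31.3, 42.6 and 29.95 CPM at 21 dpi. Each condition was higher at 21 dpi, and the 2 libraries of Tgfbr2-cKO did not reach 1.5-fold. In dendritic cells the values were 46.3, 113 and 63.8 CPM and then 163, 187 and 246 CPM, and the mature subset stood at 533 CPM against 0 to 40.7 CPM in the others. The part of the mature share in these values was not tested. The plot by mouse gives Il15ra beside Cd80, Cd274 and Cd28.

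Cd274, Pdcd1lg2, Il15ra and Cd40 were called higher in ADWA11 than in Ctrl macrophages at 21 dpi, and Cd80 in fibroblasts. The promoters of these genes are shown, other than Cd40. Each run is RefSeq sequence of GRCm38.p6 on the plus strand, from 250 bases before to 50 bases after an annotated start. Capitals mark AANNGAAA on either strand, the core letters bound by interferon regulatory factors.
Cd80, chr16:38458683-38458982: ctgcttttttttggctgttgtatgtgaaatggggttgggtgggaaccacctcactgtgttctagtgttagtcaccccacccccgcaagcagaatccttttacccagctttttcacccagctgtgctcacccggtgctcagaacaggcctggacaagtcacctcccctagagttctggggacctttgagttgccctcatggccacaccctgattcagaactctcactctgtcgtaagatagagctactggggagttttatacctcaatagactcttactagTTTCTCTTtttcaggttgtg
Cd274, chr19:29367188-29367487: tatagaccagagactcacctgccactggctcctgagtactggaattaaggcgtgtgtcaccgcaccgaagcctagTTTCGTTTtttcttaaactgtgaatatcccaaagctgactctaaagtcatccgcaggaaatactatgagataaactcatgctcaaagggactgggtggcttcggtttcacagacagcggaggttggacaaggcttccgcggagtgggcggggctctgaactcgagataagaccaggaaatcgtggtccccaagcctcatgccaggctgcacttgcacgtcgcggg
Pdcd1lg2, chr19:29410669-29410968: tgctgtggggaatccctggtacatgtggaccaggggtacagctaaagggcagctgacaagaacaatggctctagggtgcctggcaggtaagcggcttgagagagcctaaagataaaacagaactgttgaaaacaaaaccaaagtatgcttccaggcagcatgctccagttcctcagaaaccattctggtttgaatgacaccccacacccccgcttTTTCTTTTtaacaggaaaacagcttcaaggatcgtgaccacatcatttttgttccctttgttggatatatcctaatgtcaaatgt
Il15ra, first start, chr2:11705043-11705342: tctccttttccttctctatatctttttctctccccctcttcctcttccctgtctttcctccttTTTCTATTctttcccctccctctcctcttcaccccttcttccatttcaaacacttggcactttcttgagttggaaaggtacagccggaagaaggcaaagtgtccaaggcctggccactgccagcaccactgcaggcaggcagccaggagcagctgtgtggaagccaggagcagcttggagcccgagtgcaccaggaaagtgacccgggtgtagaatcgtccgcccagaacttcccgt
Il15ra, second start, chr2:11705462-11705761: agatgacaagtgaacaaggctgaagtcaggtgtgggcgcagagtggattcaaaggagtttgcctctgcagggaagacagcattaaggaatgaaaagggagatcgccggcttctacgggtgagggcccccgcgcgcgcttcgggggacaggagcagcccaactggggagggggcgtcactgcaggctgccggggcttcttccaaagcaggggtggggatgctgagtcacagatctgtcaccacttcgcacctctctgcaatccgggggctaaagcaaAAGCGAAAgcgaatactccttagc
Each of these 5 windows held 1 match of AANNGAAA, as did the window of Pdcd1, while that of Icosl held none. At least 1 match was in 23.9% of 32851 RefSeq promoters of this length. The match lay 175 bases before the start of Cd274, 35 bases before that of Pdcd1lg2 and 187 bases before the first start of Il15ra, and after the start in Cd80 and at the second start of Il15ra. TTCNNNGAA, the letters of a STAT site, was in none of these windows and in 8.30% of all promoters. A match here is a description of the letters.

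**Figure D3:**
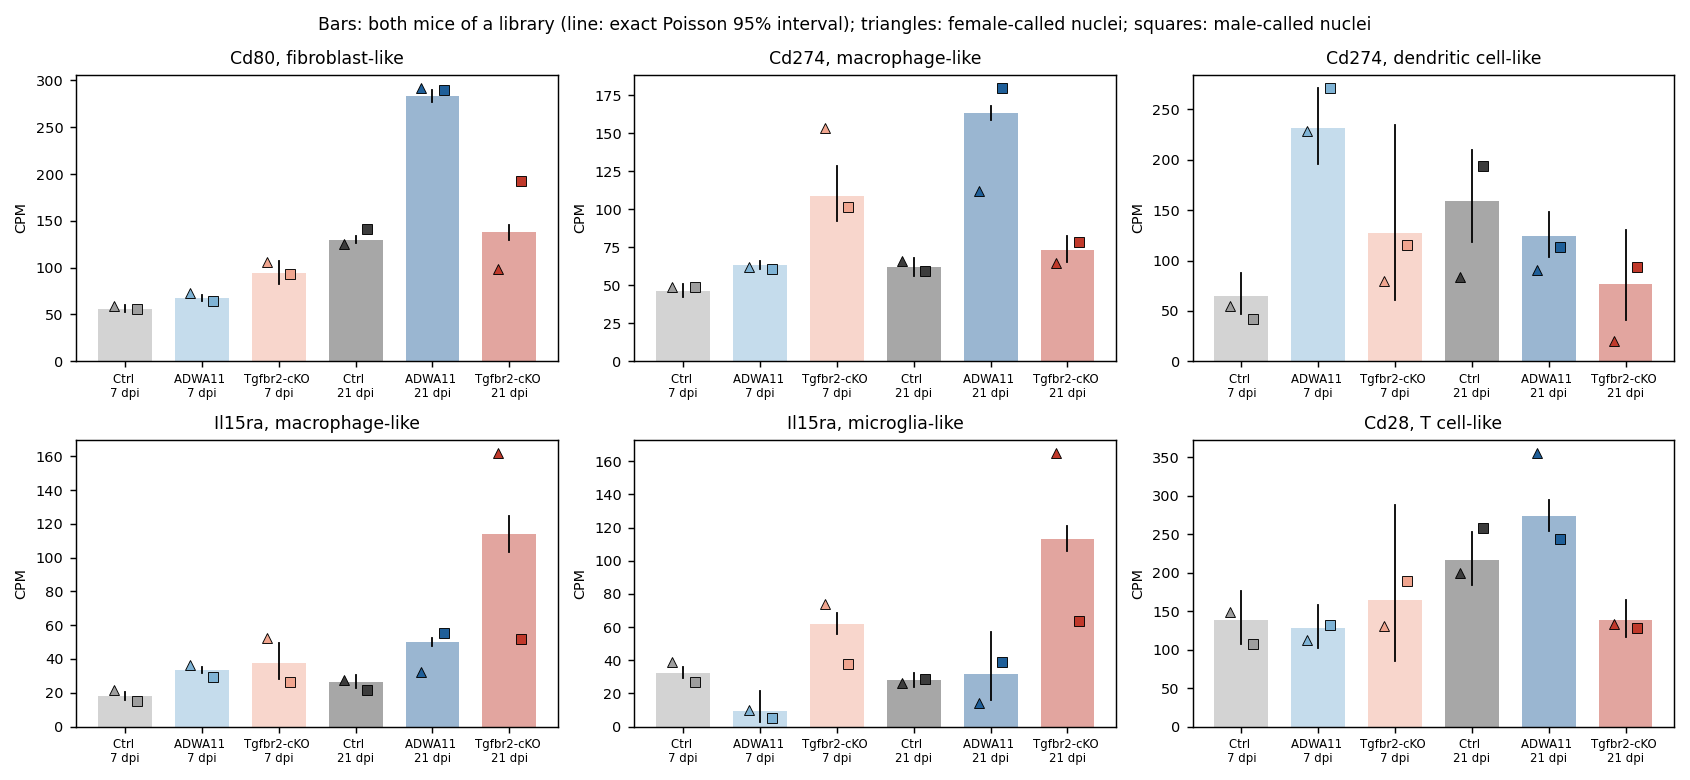
CPM (vertical axis) of Cd80, Cd274, Il15ra and Cd28 in the named group of each library, with bars for both mice, a line for the exact Poisson 95% interval, triangles for female-called nuclei and squares for male-called nuclei. Both mice of ADWA11 at 21 dpi stand at 292 and 289 CPM for Cd80 in fibroblasts, while those of Tgfbr2-cKO at 21 dpi stand at 162 and 51.9 CPM for Il15ra in macrophages. The ADWA11 bars of microglia rest on 79 and 62 nuclei of doubtful name.

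Cd40 (chr2:165055627-165072948, plus strand), the receptor of CD40L, was above all a dendritic gene per UMI, at 83.3, 104 and 51.0 CPM at 7 dpi and 65.7, 155 and 29.3 CPM at 21 dpi. The 2 Tgfbr2-cKO values rest on 4 and 5 UMIs. ADWA11 at 21 dpi was the highest (log2 ratio to Ctrl 1.24), but its mice stood at 45.1 and 157 CPM, the first below both Ctrl mice (61.0 and 72.5 CPM). Mature dendritic cells held 323 CPM. In macrophages Cd40 stood at 9.71, 6.14 and 17.0 CPM at 7 dpi and at 14.9, 23.3 and 9.39 CPM at 21 dpi, so that the libraries changed places between the days. The ratios of Tgfbr2-cKO to Ctrl at 7 dpi (0.81) and of ADWA11 to Ctrl at 21 dpi (0.64) turned in direction within the Cd163 sub-cluster, which held most Tgfbr2-cKO macrophages at 7 dpi, to -1.21 and -0.41, and the first was -0.068 without the 5 nuclei of each library with the most Cd40 UMIs.

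Icosl (chr10:78069302-78083913, plus strand), the ligand of ICOS, was highest in dendritic cells at every condition, at 111, 82.6 and 89.3 CPM at 7 dpi and 103, 89.9 and 164 CPM at 21 dpi, with no call between libraries. In macrophages ADWA11 was the lowest at both days, at 8.87 CPM against 17.2 CPM in Ctrl at 7 dpi and at 11.2 against 20.7 CPM at 21 dpi. The log2 ratios were -0.96 (-1.22 to -0.69) and -0.88 (-1.16 to -0.60), and both ADWA11 mice were below both Ctrl mice at each day. Within the Cd163 sub-cluster the 7 dpi ratio was 0.48, against the direction of the group. The Icosl level of Tgfbr2-cKO macrophages was 22.2 and 20.3 CPM. In fibroblasts Icosl ran from 2.83 CPM in Ctrl at 7 dpi to 7.06 CPM in ADWA11 at 21 dpi, and the 3 libraries at 21 dpi were above the 3 at 7 dpi.

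Cd28 (chr1:60716800-60773359, plus strand) encodes the T cell receptor of CD80 and CD86. In T cells it stood at 138, 128 and 165 CPM at 7 dpi and at 216, 273 and 139 CPM at 21 dpi. At 21 dpi Tgfbr2-cKO was the lowest library, with a log2 ratio to Ctrl of -0.64 (-0.99 to -0.30) and mice at 133 and 127 CPM against 200 and 258 CPM. Regulatory T cells held 391 CPM over all libraries, CD8 T cells 239 CPM, NK cells 86.6 CPM and gamma-delta T cells 9.03 CPM. ADWA11 at 21 dpi supplied 205 of 242 regulatory, 343 of 609 CD8 and 232 of 331 NK nuclei. The 280 T cells of Tgfbr2-cKO at 21 dpi included 70 gamma-delta nuclei, against 51 of 303 in Ctrl. Within CD8 T cells the values were 310 CPM in Ctrl and 169 CPM in Tgfbr2-cKO.

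Cd28 RNA was also counted in macrophages, at 24.9, 48.7 and 20.7 CPM at 7 dpi and 34.7, 44.3 and 26.7 CPM at 21 dpi. The 12 T cell markers summed in the same nuclei to 17.1, 9.66 and 23.7 CPM at 7 dpi and to 24.6, 31.1 and 22.5 CPM at 21 dpi. The sums ran in the reverse order of Cd28 at 7 dpi and in the same order at 21 dpi, and the part of T cell RNA was not tested. The log2 ratio of ADWA11 to Ctrl at 7 dpi was 0.97 (0.79 to 1.16), with mice at 48.8 and 50.6 CPM against 25.3 and 26.1 CPM. Within the Cd163 sub-cluster it was -0.14. Dendritic cells held 10 Cd28 UMIs in all 6 libraries together, or 3.47 CPM.

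Pdcd1 (chr1:94038305-94052553, minus strand), the receptor of both PD-1 ligands, stood at 48.8, 61.1 and 68.6 CPM in T cells at 7 dpi and at 72.2, 70.7 and 58.1 CPM at 21 dpi, with no comparison past the threshold. Intervals were wide, for instance 53.9 to 94.6 CPM in Ctrl at 21 dpi. Among subsets of the T cell group it was highest in gamma-delta T cells (153 CPM), regulatory T cells (144 CPM) and cycling T cells (139 CPM), whose intervals overlapped. Of the 242 regulatory nuclei, 205 came from ADWA11 at 21 dpi. CD8 T cells held 56.8 CPM and NK cells 1 UMI. Microglia held 78 Pdcd1 UMIs, or 2.43 CPM, against 0.18 CPM in macrophages.

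**Figure D4:**
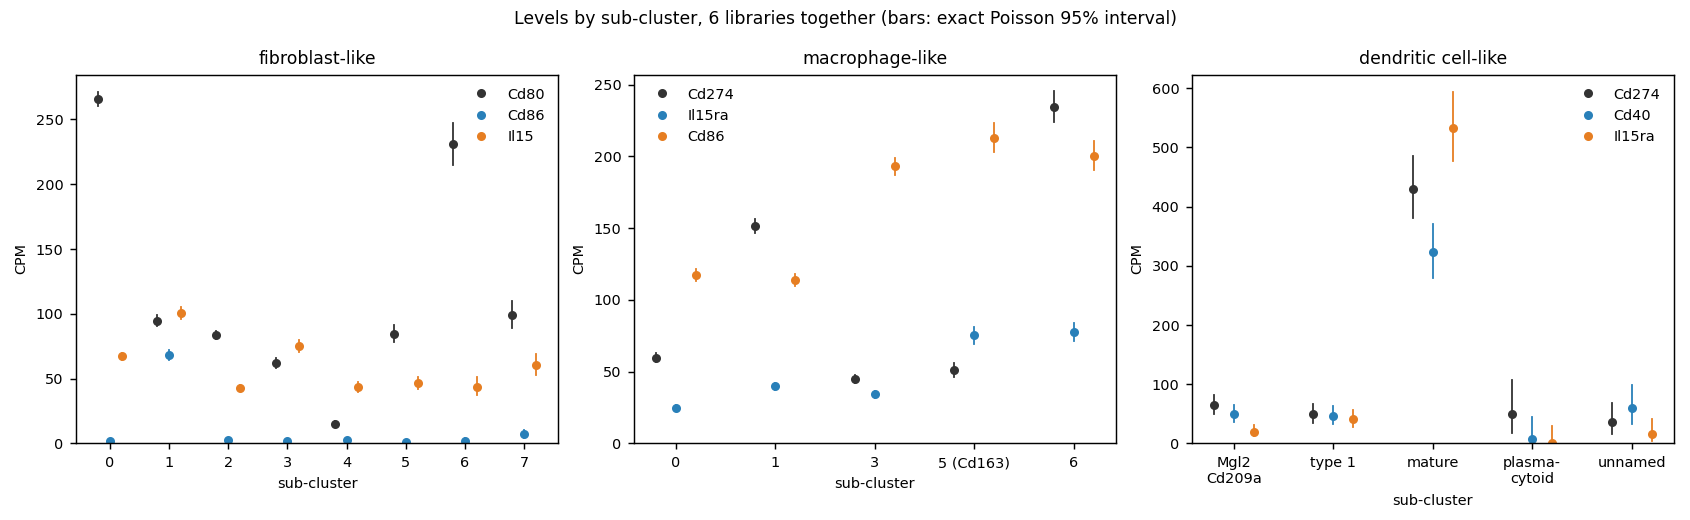
CPM (vertical axis) of selected genes by sub-cluster of fibroblasts, macrophages and dendritic cells (horizontal axis), with the 6 libraries together and exact Poisson 95% intervals. Cd80 is highest in fibroblast sub-cluster 0 (266 CPM), Cd274 in macrophage sub-cluster 6 (235 CPM), and Cd274, Cd40 and Il15ra in mature dendritic cells (430, 323 and 533 CPM).

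The 5 groups were also ordered by the median of their libraries, with microglia over the 4 Ctrl and Tgfbr2-cKO libraries, and neighbours are called apart where the ranges over libraries did not overlap. Cd80 ran from dendritic cells (193 CPM) through fibroblasts (112), macrophages (47.0) and T cells (26.9) to microglia (22.0), with no neighbours apart. Cd86 ran from dendritic cells (398 CPM) and microglia (298) through macrophages (151) and T cells (41.7) to fibroblasts (11.1), and microglia were apart from macrophages and T cells from fibroblasts. Cd274 ran in the same order of groups, with only T cells (59.5 CPM) and fibroblasts (11.6) apart. Il15 was highest in macrophages (203 CPM), apart from microglia (156) but not from dendritic cells (156), and fibroblasts (60.7) were apart from T cells (22.3). Il15ra ran from dendritic cells (138 CPM) to fibroblasts (26.6) with no neighbours apart. Icosl in dendritic cells (96.5 CPM) was apart from the next group, microglia (21.0), and Cd40 in dendritic cells (74.5 CPM) from macrophages (12.3). Cd28 and Pdcd1 in T cells (152 and 64.9 CPM) were apart from all 4 other groups. For Pdcd1lg2, dendritic cells (43.3 CPM) and T cells (33.3) overlapped, and both were apart from macrophages (1.64).

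Across the 5 groups, each comparison had 35 to 44 gene-by-group values with enough UMIs, of 50. The genes had been chosen with earlier results of these data known, so the shares below are a description. In Tgfbr2-cKO against Ctrl at 7 dpi 13 were higher and 1 lower of 37, or 37.8%, and of all features in the same groups 11.7% were higher and 4.61% lower (16.3% together). Under TMM scaling 9 were higher and 3 lower, beside 9.21% and 7.54% of all features. At 21 dpi Tgfbr2-cKO had 6 higher and 4 lower of 42, or 23.8%, beside 9.85% and 8.39% of all features (18.2% together).

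ADWA11 against Ctrl at 7 dpi had 13 higher and 5 lower of 41, or 43.9%, beside 10.8% and 7.57% of all features (18.4% together). At 21 dpi it had 16 higher and 2 lower of 44, or 40.9%, beside 7.29% and 11% of all features (18.2% together), so that most called values of these genes lay above Ctrl and most called values of all features below it. Without microglia, ADWA11 had 13 of 34 values called at 7 dpi (38.2%, background 18.2%) and 13 of 36 at 21 dpi (36.1%, background 15.8%).

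With day, Ctrl had 13 higher and 1 lower of 43 at 21 dpi, beside 15.2% and 7.78% of all features (23% together), and under TMM scaling 10 higher and 2 lower, beside 13.1% and 9.6%. ADWA11 had 13 higher and 4 lower of 40, beside 13.5% and 12.8% of all features (26.3% together), and without microglia 15 called of 36 (background 25.3%). Tgfbr2-cKO had 5 higher and 2 lower of 35, or 20%, beside 8.25% and 10.8% (19.1% together). In fibroblasts 6 of 10 values were higher at 21 dpi under ADWA11 (background 18.7%) and 4 of 9 in Ctrl (background 20.6%), with Cd80, Cd274, Icosl and Il15ra in both. Cd40, 1 of the 6, became -0.59 without sub-cluster 1 and -0.032 in female-called nuclei alone. Pdcd1, another of the 6, had 1 UMI at 7 dpi and 11 at 21 dpi outside sub-cluster 1, short of the 20 needed. Inside sub-cluster 1 it had 1 and 7 UMIs. The 12 T cell markers summed in these ADWA11 fibroblasts to 13.4 CPM at 7 dpi and 41.3 CPM at 21 dpi. The part of T cell RNA in this Pdcd1 value was not tested. The 7 comparisons share libraries. Of the 98 called values, both mice of 1 library lay beyond both mice of the other in the same direction in 84, or 85.7%, beside 89.5% of all called features.

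**Figure D5:**
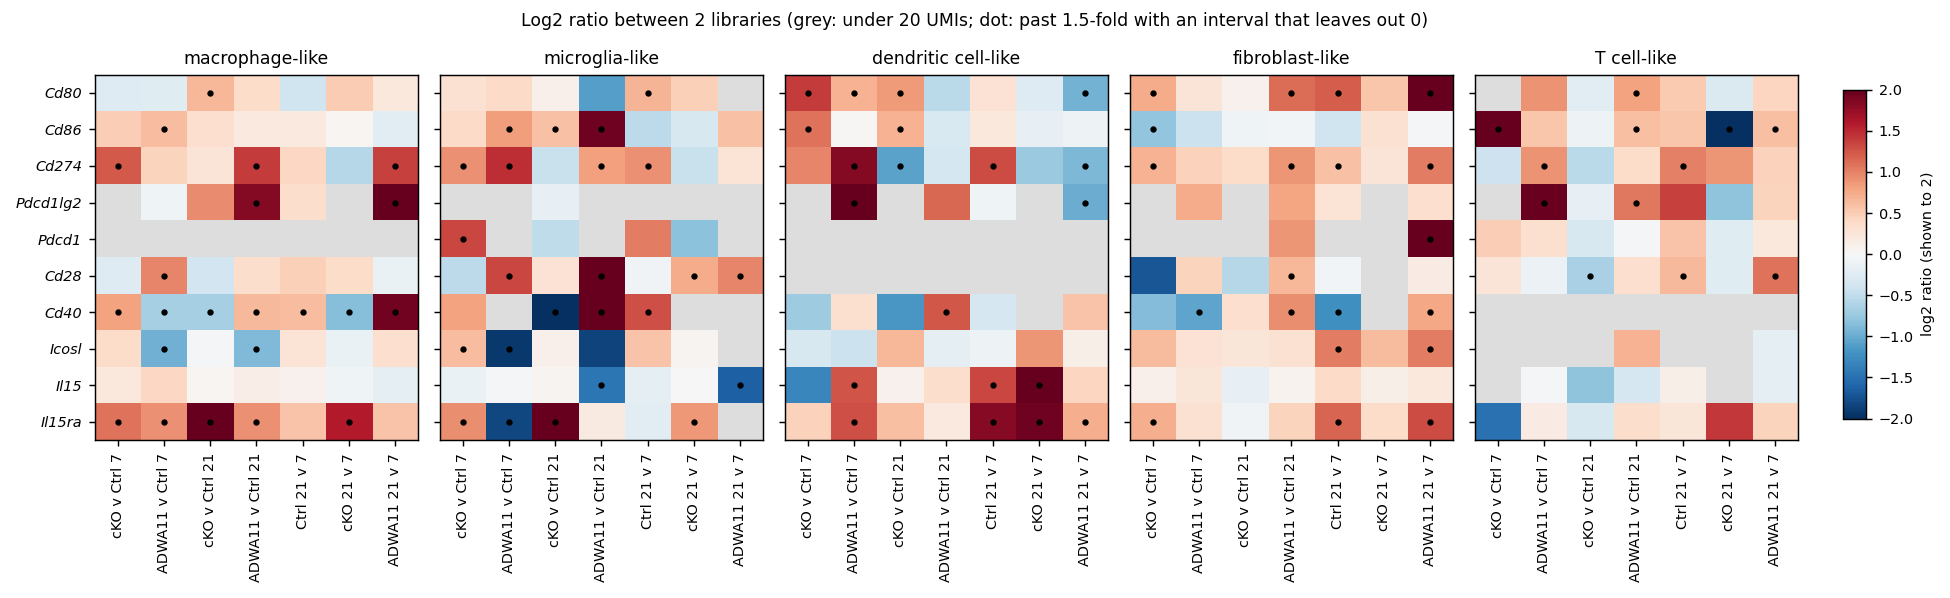
Log2 ratios of CPM between 2 libraries for each gene (rows) and comparison (columns) in the 5 groups, in red where the first library was higher and in blue where it was lower. Grey marks fewer than 20 UMIs and a dot a ratio past the threshold. Il15ra in macrophages and microglia for Tgfbr2-cKO against Ctrl at 21 dpi (2.10 and 2.02) and Cd80 in fibroblasts for ADWA11 at 21 against 7 dpi (2.07) are among the largest.

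Whole libraries gave another picture. Relative to all UMIs of the library, 9 of the 10 genes were lower in Tgfbr2-cKO than in Ctrl at 7 dpi (background 39.2%), while within groups 13 of the 14 called values were higher. Cd80 for instance stood at 5.48 against 38.8 CPM over the library. At 21 dpi 9 of 10 were higher in ADWA11 than in Ctrl (background 11.9%). Counts per library alone cannot tell fewer nuclei of a type from less RNA per nucleus. At 7 dpi neurons held 99911616 of the 120375257 UMIs of the Tgfbr2-cKO library, against 975209 of 54990326 in Ctrl. The part of this in the whole-library values was not tested.

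The receptors that pair with these ligands were found mainly in T cells, which held 89.0% of Cd40lg, 81.8% of Il2rb, 73.7% of Ctla4 and 64.4% of Icos, but 30.3% of Il2rg. Ctla4, the inhibitory receptor of CD80 and CD86, stood at 95.6, 130 and 288 CPM in T cells at 7 dpi and at 110, 169 and 184 CPM at 21 dpi. Ctrl was the lowest at each day, and the log2 ratios at 21 dpi were 0.62 for ADWA11 and 0.75 for Tgfbr2-cKO. The subsets differed, with regulatory T cells, which held 697 CPM of Ctla4 over all libraries, making up 205 of 1062 nuclei in ADWA11, 9 of 280 in Tgfbr2-cKO and 15 of 303 in Ctrl. Within CD8 T cells Ctla4 was 157, 62.8 and 177 CPM at 21 dpi, so ADWA11 was the lowest there. Another T cell sub-cluster, of 538 nuclei with Cd4 and Cd5 raised, had too few markers for a name. Its Ctla4 stood at 74.9, 68.6 and 185 CPM at 21 dpi (16, 35 and 59 UMIs), with Tgfbr2-cKO the highest. Il2rb, the β chain that binds IL-15, stood at 222, 274 and 261 CPM and then at 169, 399 and 242 CPM, with a log2 ratio of 1.24 (0.97 to 1.52) for ADWA11 against Ctrl at 21 dpi. NK cells, at 691 CPM of Il2rb over all libraries, were 232 of the ADWA11 and 29 of the Ctrl nuclei. Within CD8 T cells Il2rb stood at 165 CPM in Ctrl and 322 CPM in ADWA11, and within NK cells at 406 and 741 CPM. Icos stood at 409, 182 and 302 CPM at 7 dpi and at 294, 248 and 282 CPM at 21 dpi. Cd40lg was sparse, at 29.0 to 54.9 CPM on 4 to 95 UMIs a library. Il2rg lay between 163 and 329 CPM.

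Another 40 genes of T cell co-signalling were counted in the same way. Over the 5 groups 17 of 91 tested values were called in Tgfbr2-cKO at 7 dpi (18.7%), 36 of 111 in ADWA11 at 7 dpi (32.4%), 23 of 107 in Tgfbr2-cKO at 21 dpi (21.5%) and 43 of 128 in ADWA11 at 21 dpi (33.6%), beside the backgrounds given above. Without microglia ADWA11 had 26 of 92 at 7 dpi (28.3%) and 37 of 111 at 21 dpi (33.3%). Their medians over tested values were near 0 in these comparisons, between -0.14 and 0.16 on the log2 scale. In macrophages Tnfsf8, the CD30 ligand, stood at 65.0, 7.41 and 84.5 CPM at 7 dpi and 17.1, 1.75 and 24.0 CPM at 21 dpi, and ADWA11 was the lowest at both days (log2 ratios -3.13 and -3.29). Cd200, an inhibitory ligand for myeloid cells, stood at 27.7, 54.4 and 4.94 CPM in macrophages at 21 dpi, and at 5.47, 5.08 and 2.96 CPM at 7 dpi without a call against Ctrl. Tnfsf18, the ligand of GITR, was at 1 UMI in Ctrl macrophages at 7 dpi and at 145 UMIs, 3.92 CPM, in ADWA11, and at 0.55 and 2.32 CPM in the same pair at 21 dpi. In dendritic cells Cd226, an activating receptor, stood at 23.1 CPM in Ctrl and 132 CPM in ADWA11 at 7 dpi and at 93.8 and 218 CPM at 21 dpi, and Cd244a, a receptor for CD48, at 417 and 207 CPM and then 225 and 208 CPM. Lgals9, which encodes galectin-9, was lower in ADWA11 dendritic cells, at 30.6 against 55.5 CPM and 24.7 against 56.3 CPM. In fibroblasts Tnfsf4, the OX40 ligand, stood at 8.79 CPM (22 UMIs) in Tgfbr2-cKO at 7 dpi and at 0.19 to 0.82 CPM elsewhere. Tnfsf8 in fibroblasts was 7.55 CPM in Ctrl at 7 dpi and 1.02 to 3.03 CPM in the other 5 libraries. Vsig4, an inhibitory receptor of macrophages, was at 1.27 CPM in ADWA11 and 0.21 CPM in Ctrl fibroblasts at 7 dpi, and at 0.87 and 0.40 CPM at 21 dpi. The 20 macrophage markers summed to 797 to 2220 CPM in fibroblasts, the most in Ctrl at 7 dpi. The part of macrophage RNA in these fibroblast values was not tested. In T cells Cd27, a co-stimulatory receptor, stood at 97.7, 70.0 and 13.7 CPM at 7 dpi, the last from 1 UMI (log2 ratio to Ctrl -2.83, -8.16 to -0.28), and at 133, 209 and 94.6 CPM at 21 dpi. Tnfrsf18, which encodes GITR, stood at 44.8, 62.6 and 165 CPM at 7 dpi and at 73.5, 74.0 and 45.2 CPM at 21 dpi, so that Tgfbr2-cKO was above Ctrl at 7 dpi (log2 ratio 1.88, with 12 UMIs) and below it at 21 dpi (-0.70). The adhesion gene Icam1 stood at 28.5, 77.5 and 96.1 CPM at 7 dpi, both higher than Ctrl (log2 ratios 1.44 and 1.75, the second with 7 UMIs), and at 81.9, 101 and 66.7 CPM at 21 dpi without a call. In microglia Havcr2 (TIM-3) lay between 215 and 237 CPM in the Ctrl and Tgfbr2-cKO libraries, Lgals9 between 109 and 143 CPM and Tnfsf8 between 8.21 and 12.7 CPM.

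Genes with a like pattern were found by the Pearson correlation of log2(CPM + 1) over 68 sums of cell group by library and 16630 genes, as a description only, since the sums share libraries and depth. The 3 closest to Cd80 were Sp140, Notch2 and Birc3 (r = 0.85, 0.85 and 0.84). Those closest to Cd86 were Irf8, Irf5 and Nckap1l (0.91, 0.91 and 0.90), to Cd274 Cd53, Mcl1 and Cyba (0.92, 0.90 and 0.90) and to Il15 Tlr4, Lyn and Fes (0.92, 0.91 and 0.90). Il15ra was closest to Ifih1, Tap2 and Bst2 (0.80, 0.78 and 0.77). For Pdcd1lg2 the genes were Cytip, Nabp1 and 5830428M24Rik (0.89, 0.87 and 0.87), and for Pdcd1 Gm44174, Gata3 and Sh2d2a (0.90, 0.88 and 0.88). For Cd28 they were Tpp2, Rasa1 and Rhoh (0.81, 0.80 and 0.79), for Cd40 Prcp, Pqlc1 and Cd74 (0.78 each) and for Icosl Ppt1, Kdm3b and Uvrag (0.81 each).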

How the data were processed

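The 6 single-nucleus libraries (10x 3′ chemistry, DAPI-sorted nuclei) were analysed. The deposited counts are UMIs per gene and barcode, not normalised, made by the authors with Cell Ranger 7.2.0 per the file headers (7.1.0 in the submitters' processing notes) on mm10. Exonic and intronic UMIs were not told apart here, and the setting of the authors' counting is not given in the sources used here.

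The lowest and highest 2.5% of UMIs and genes and the highest 2.5% of mitochondrial share were left out per library. Nuclei were clustered in Seurat 5.3.0 with sctransform 0.4.2 (R 4.3.3, 3000 variable genes, 30 components, resolution 0.5), without the 10 genes and their pathway lists among the variable genes, and sub-clustered at 0.2 to 0.5. A group name needed 3 markers detected in 5% of nuclei at 2 times the level elsewhere. These naming rules were set after clusters had been seen, and a difference from the study may come from rebuilt names. Doublets were scored against simulated ones (5825 called), and 394 nuclei in sub-clusters with over 50% doublets were left out.

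UMIs were summed per group and library. CPM carry exact Poisson 95% intervals, and log2 ratios exact conditional binomial 95% intervals (scipy). The code of the ratios was run on simulated Poisson counts. These follow the model that the intervals assume, so the run says nothing of spread between nuclei or mice. A ratio against 0 UMIs is a bound at a floor of 3 counts. All 10 genes, the paired receptors and, of the other 40, up to 3 per group called in at least 2 of 4 comparisons with Ctrl were named. The genes and lists were chosen with earlier results of these data known. Alternatives were TMM scaling (edgeR 4.0.16), each mouse alone, doublets, single nuclei, log-normalised clusters and filters.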

Additional observations from a re-analysis of the deposited data

Results flagged for a closer look

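Opposite differences between groups or days, each between 2 libraries, are listed as values. The difference was not tested in any of them. In Tgfbr2-cKO against Ctrl at 7 dpi the log2 ratio of Cd86 was 1.09 in dendritic cells and 2.53 in T cells, on 22 and 27 nuclei of Tgfbr2-cKO, but -0.79 in fibroblasts. In female-called nuclei alone the dendritic ratio became -0.19 and the fibroblast ratio 0.24, and the latter was 0.35 with the mean of nuclei. Of the 22 Cd86 UMIs of Tgfbr2-cKO fibroblasts, 18 lay in sub-cluster 1, where 36.7% of nuclei were called doublets. The Cd40 ratio in macrophages was 0.81 at 7 dpi and -0.67 at 21 dpi for Tgfbr2-cKO against Ctrl, and -0.66 and 0.64 for ADWA11 against Ctrl. Within the Cd163 sub-cluster 0.81 became -1.21 and 0.64 became -0.41. In fibroblasts the ADWA11 ratio of Cd40 was -1.06 at 7 dpi and 0.94 at 21 dpi, from 41 and 63 UMIs of ADWA11. Of the 63, 45 lay in sub-cluster 1, and without it Cd40 at 21 dpi stood at 0.78 CPM in ADWA11 (18 UMIs, 0.46 to 1.23) and 0.52 CPM in Ctrl (16 UMIs, 0.30 to 0.84), with intervals that overlap. For Il15ra, ADWA11 against Ctrl at 7 dpi gave 0.92 in macrophages and 1.29 in dendritic cells but -1.82 in microglia, where ADWA11 had 5 UMIs in 79 nuclei whose name is doubtful.

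Neutrophils, a group outside the comparisons with 342 nuclei in 6 libraries, held levels of Cd274, Pdcd1lg2 and Il15 above those of all 5 groups over all libraries. Cd274 stood at 196 CPM against 136 CPM in the highest of the 5, Pdcd1lg2 at 80.7 against 51.0 CPM and Il15 at 499 against 217 CPM. Pdcd1lg2 in neutrophils came from 4 of the 6 libraries, with 415 CPM (22 UMIs) in Ctrl at 7 dpi and 150 CPM (14 UMIs) in Ctrl at 21 dpi, and no UMI in ADWA11 and Tgfbr2-cKO at 7 dpi. Dendritic cells held 96.4 CPM of Pdcd1lg2 in that ADWA11 library, so the order of the pooled values did not hold in each library. Il15 in neutrophils ran from 210 to 679 CPM.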

How the results depend on the processing

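No paired analysis was run, and the labels carry no replicate numbers and each condition and day is 1 library. A fit of condition with day as a block over the 6 libraries was not run. With a fold of 2 the called values numbered 6, 10, 4 and 9 for Tgfbr2-cKO and ADWA11 against Ctrl at 7 dpi and the same pair at 21 dpi, and 9, 4 and 10 for 21 against 7 dpi in Ctrl, Tgfbr2-cKO and ADWA11, by construction fewer than at 1.5-fold. Of all features 11%, 10.3%, 10.8%, 11.2%, 13.1%, 11.7% and 16.2% were called at this fold in the same order, and 35 to 44 member values were tested. Male-called nuclei alone gave 8 called of 26 tested (Tgfbr2-cKO, 7 dpi, background 13.8%), 3 of 26 (Tgfbr2-cKO, 21 against 7 dpi, 16%) and 11 of 37 (ADWA11, 21 against 7 dpi, 23.2%), and female-called nuclei alone 6 of 33 (Tgfbr2-cKO, 21 dpi, 21.2%) and 11 of 28 (Tgfbr2-cKO, 21 against 7 dpi, 19.7%), on fewer nuclei. At least 50 UMIs left 4 of 25 for Tgfbr2-cKO, 21 against 7 dpi (19.9%). TMM factors moved all ratios of a group by up to -0.24 (fibroblasts, Tgfbr2-cKO at 7 dpi).

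Of the 98 called ratios, 18 alternative values turned in sign, and for these the cause was not tested. More values moved without a turn, with 38 of 98 in male-called nuclei, 30 of 97 in female-called nuclei and 8 of 20 within the Cd163 sub-cluster. In the same order 58, 62 and 7 stayed the same, and TMM scaling left 97 of 98 the same. The turns are listed here. Within the Cd163 sub-cluster, added after seeing the data, macrophage ratios became -0.084 (Cd80, Tgfbr2-cKO at 21 dpi), -0.14 (Cd28, ADWA11 at 7 dpi), -1.21 (Cd40, Tgfbr2-cKO at 7 dpi), -0.41 (Cd40, ADWA11 at 21 dpi) and 0.48 (Icosl, ADWA11 at 7 dpi). In female-called nuclei they became, for Tgfbr2-cKO at 7 dpi, -0.19 (Cd86, dendritic cells) and 0.24 (Cd86, fibroblasts), for ADWA11 at 21 dpi -0.00098 (Cd86, T cells) and -0.43 (Cd40, dendritic cells), and for ADWA11 at 21 against 7 dpi -0.032 (Cd40, fibroblasts). In male-called nuclei they became 0.82 (Pdcd1lg2, dendritic cells, ADWA11 at 21 against 7 dpi) and -0.46 (Cd28, microglia, ADWA11 at 7 dpi). Without the 5 nuclei with the most UMIs they became -0.66 (Cd274, microglia, ADWA11 at 21 dpi), -0.068 (Cd40, macrophages, Tgfbr2-cKO at 7 dpi) and -0.61 (Il15, dendritic cells, Tgfbr2-cKO at 21 against 7 dpi). Cd86 became 0.35 in fibroblasts with the mean of nuclei (Tgfbr2-cKO, 7 dpi) and -0.13 in microglia with log-normalised clusters (ADWA11, 21 dpi), and Cd40 -0.59 in fibroblasts without sub-cluster 1 (ADWA11, 21 against 7 dpi), also added after seeing the data. Pdcd1, Cd40 and Pdcd1lg2 were often under 20 UMIs over both libraries compared.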
